A study of Mus musculus with 10 samples.

Results

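The 10 genes described here encode components of 2 families of ubiquitin ligases, the anaphase-promoting complex or cyclosome (APC/C) and the cullin-RING ligases of the SCF type. They were chosen by name. Of them, 3 are core subunits of the APC/C (Anapc1, Anapc2 and Cdc27) and 7 are regulators or substrate receptors (Ube2c, Ube2s, Cdc20, Fzr1, Fbxo5, Skp2 and Dtl). Each symbol matched 1 Ensembl identifier among the 45232 genes measured. RNA came from NIH3T3 cells, an immortalized mouse fibroblast line, of 2 clones in which Lin37 had been mutated, 1 at exon 4 and 1 at exon 6. Both clones carried a doxycycline-inducible episome, a plasmid kept outside the chromosomes, that expressed luciferase (KO) or wild-type Lin37 (rescue), in each case together with GFP. All cells had been kept without serum for 60 h and are labelled as quiescent. The exon 4 clone gave 2 KO and 2 rescue libraries, named as biological replicates. The exon 6 clone gave 3 of each, of which the labels name libraries 2 and 3 as technical replicates of each other. The labels do not say more about how separate the cultures of a clone were, so the p-values measure the spread between these samples. Each genotype thus rests on 2 clones, the rescue cells are mutant cells with an added plasmid, and unedited parental cells were not analysed here.

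Ubiquitin ligases attach ubiquitin to chosen proteins, which are then degraded by the proteasome. The APC/C drives the metaphase-to-anaphase transition and keeps mitotic cyclins low in G1 and in quiescent cells. It recognizes its substrates through an activator, Cdc20 in mitosis and Fzr1 (whose protein is also called Cdh1) from late mitosis through G1. SCF ligases are built on a cullin with an exchangeable F-box protein such as Skp2, whose best known substrate is the CDK inhibitor p27. Dtl (Cdt2) is counted here with the SCF genes, but it is the substrate receptor of a related cullin-RING ligase built on Cul4 and Ddb1 (CRL4), which acts on Cdt1, p21 and Kmt5a. Lin37 is a subunit of MuvB, the core of the DREAM complex, which represses cell cycle genes in quiescent cells through E2F sites and through the cell cycle genes homology region (CHR) in their promoters. The comparison of KO with rescue cells asks which genes depend on Lin37 in quiescence.

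Promoter windows from RefSeq (GRCm38.p6) were found for all 10 genes, with 2 windows for Skp2 and so 11 in all. A window runs from 250 bases before to 50 bases after a transcript start. CHR was searched as TTTGAA or TTCGAA and the E2F site as TTCCCGC or as TTCGCGC or as TTGCCGC or as TTGGCGC, on both strands. A CHR match lay in the windows of 5 genes (Ube2c, Ube2s, Cdc20, Fbxo5 and Skp2), and an E2F match in the window of Dtl. The core subunits and Fzr1 had neither. Of 32851 windows genome-wide, 19.2% held a CHR match and 9.57% an E2F match, so matches by letters alone are common, and a match is a description, not a binding site. In Cdc20, the match began 18 bases before the start. In Ube2c, it began 29 bases before the start on the reverse strand, and in Fbxo5 it lay at position 3 after the start, also in reverse. In Ube2s, it was 162 bases upstream, and 1 window of Skp2 held 2 matches, 63 and 55 bases upstream. The matches to E2F in Dtl began 109 and 7 bases before the start. The 3 genes with the highest KO to rescue ratios and 1 core subunit without a match are shown from 150 bases before to 30 bases after the start, in the direction of transcription, with CHR and E2F matches in capitals.
Cdc20 (chr4:118437314-118437493, minus strand): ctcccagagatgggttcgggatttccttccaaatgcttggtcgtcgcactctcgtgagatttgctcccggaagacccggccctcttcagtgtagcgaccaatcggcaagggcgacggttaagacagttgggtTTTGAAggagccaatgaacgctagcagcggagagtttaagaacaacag
Ube2c (chr2:164769779-164769958, plus strand): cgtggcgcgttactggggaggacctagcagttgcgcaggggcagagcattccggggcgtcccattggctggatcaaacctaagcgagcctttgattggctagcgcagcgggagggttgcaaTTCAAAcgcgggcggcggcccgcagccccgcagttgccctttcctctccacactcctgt
Dtl (chr1:191575515-191575694, minus strand): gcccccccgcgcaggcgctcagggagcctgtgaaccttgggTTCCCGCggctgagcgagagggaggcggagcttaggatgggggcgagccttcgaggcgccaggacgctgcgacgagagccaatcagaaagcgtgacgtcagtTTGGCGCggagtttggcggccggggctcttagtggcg
Cdc27 (chr11:104550591-104550770, minus strand): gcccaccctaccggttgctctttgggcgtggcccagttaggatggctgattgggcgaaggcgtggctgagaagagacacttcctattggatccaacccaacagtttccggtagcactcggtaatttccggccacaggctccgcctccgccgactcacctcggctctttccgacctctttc

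**Figure D1:**
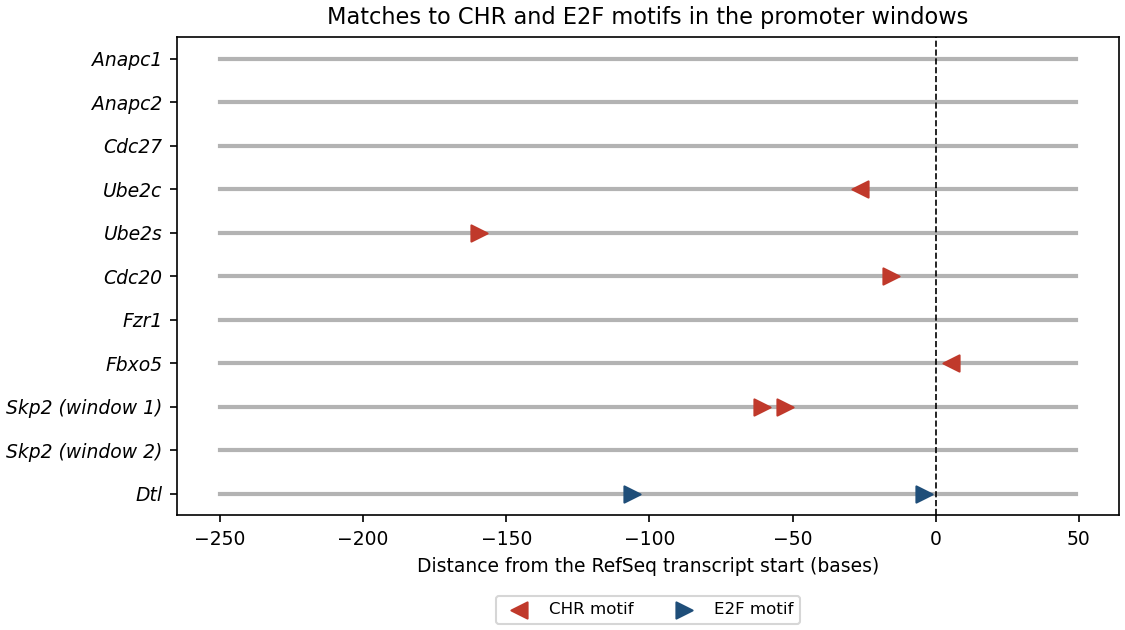
Positions of CHR (red) and E2F (blue) matches in the 11 RefSeq promoter windows of the 10 genes, by distance in bases from the transcript start (dashed line); arrowheads give the strand of the match. The matches of Cdc20 and Ube2c lie within 29 bases upstream of the start, and the windows of Anapc1, Anapc2, Cdc27 and Fzr1 are empty.

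Lin37 served as a check of the labels. Its rescaled level was 0.285 and 0.284 RPKM in the KO and 2.54 and 2.12 RPKM in the rescue libraries of the exon 4 clone, and 0.417, 0.279 and 0.268 RPKM in the KO and 4.92, 5.11 and 4.41 RPKM in the rescue libraries of the exon 6 clone. Every KO library lay below every rescue library. Reads from the rescue plasmid may be part of the rescue values, and mutation of an exon need not remove the RNA. The deposited RPKM (read counts scaled by gene length and library size) differed in overall scale between libraries by factors from 0.324 to 2.70, and the levels below were divided by these factors. In the exon 4 clone the factors were 1.90 and 0.601 (KO) and 0.722 and 0.377 (rescue). In the exon 6 clone they were 2.40, 0.896 and 2.70 (KO) and 1.06, 0.324 and 1.73 (rescue). Each KO library thus had a larger factor than the like-numbered rescue library, and rescaling lowered KO against rescue levels. The cause was not tested. The sequencing depth is unknown. Multiplied by gene length, between 24.3% and 34.6% of the lowest values of each library fell within 2% of a whole multiple of a common step, and between 7920 and 22034 genes per library were listed at 0. None of the 10 genes was at 0 in any library.

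Levels of the 3 core subunits overlapped between KO and rescue cells. Anapc1 (chromosome 2, 128610104 to 128687391 of GRCm38) and Anapc2 (chromosome 2, 25272478 to 25285915) form the platform and the cullin of the APC/C, and Cdc27 (chromosome 11, 104502745 to 104550620) is a subunit of the arm that the activators bind. Anapc2 had levels of 8.64 and 6.54 (KO) and 6.73 and 8.03 (rescue) rescaled RPKM in the exon 4 libraries, and of 5.11, 5.29 and 5.49 (KO) and 6.62, 6.03 and 6.42 (rescue) in the exon 6 libraries. Over both clones its KO replicates spanned its rescue replicates, while within the exon 6 clone every KO library lay below every rescue library. Anapc1 had levels of 1.59 and 1.79 (KO) and 1.36 and 2.06 (rescue) rescaled RPKM in the exon 4 libraries, and of 1.52, 1.68 and 1.36 (KO) and 1.33, 1.59 and 1.18 (rescue) in the exon 6 libraries. Cdc27 had levels of 1.63 and 2.32 (KO) and 2.50 and 2.25 (rescue) rescaled RPKM in the exon 4 libraries, and of 3.10, 2.65 and 2.59 (KO) and 2.21, 2.61 and 3.04 (rescue) in the exon 6 libraries. For Anapc1 and Cdc27 also the groups overlapped over both clones. Once technical replicates were averaged, the exon 6 replicates of Anapc1 did not overlap, with KO at 1.52 and rescue at 1.33 to 1.39. Its single libraries did overlap in that clone. Over both clones, the log2 change of KO against rescue on log2(RPKM + 0.5) was 0.062 for Anapc1 (95% confidence interval -0.20 to 0.32), -0.12 for Anapc2 (-0.40 to 0.16) and -0.035 for Cdc27 (-0.35 to 0.28), with 4 replicates in each group. With 1 replicate left out at a time, the change of Anapc2 lay between -0.22 (without exon 4 KO replicate 1) and -0.071 (without exon 4 KO replicate 2). Of the 3 core subunits, 0 were called at an adjusted p under 0.05 by limma, corrected after Benjamini and Hochberg over all genes, and 0 had an unadjusted p under 0.05. Among all 16866 genes tested, 271 (1.61%) were called higher and 14 (0.083%) lower in KO cells. At an unadjusted p under 0.05, 1482 of them passed by limma. With the RPKM as deposited, the log2 changes of Anapc2 and Cdc27 turned positive, at 0.83 and 0.79, where the median of all genes was 0.64.

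Of the 7 other genes, 3 were called higher in KO cells over both clones and 0 lower, against 1.61% and 0.083% of all genes tested. These were Cdc20, Ube2c and Dtl. In bulk RNA, a change in the number of cells that express a gene and a change in the RNA per cell cannot be told apart.

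Cdc20 (chromosome 4, 118432901 to 118437352), the mitotic activator of the APC/C and the target of the spindle checkpoint, was at 3.73 and 3.53 rescaled RPKM in the KO libraries of the exon 4 clone and at 0.671 and 0.241 in its rescue libraries. The exon 6 clone had Cdc20 at 2.82, 2.56 and 4.58 in KO and 0.444, 0.291 and 0.193 in rescue libraries. Every KO library lay above every rescue library, and the lowest KO value was several times the highest rescue value. The mean rose from 0.400 ± 0.205 in rescue to 3.41 ± 0.404 RPKM in KO cells (mean ± SD, n = 4 per genotype), a ratio of 8.54. The log2 change was 2.14 (standard error 0.16 and adjusted p of 0.000293 by limma, corrected after Benjamini and Hochberg), rank 3 by increase among the 16866 genes, and Cdc20 was higher in 4 of 4 pairs (same clone and replicate number in the labels).

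Ube2c (chromosome 2, 164769898 to 164778822) encodes the E2 enzyme that starts ubiquitin chains on APC/C substrates. It was at 0.629 and 0.661 rescaled RPKM in KO and 0.122 and 0.116 in rescue libraries of the exon 4 clone. For the exon 6 clone, Ube2c was at 1.18, 1.10 and 1.18 in KO and 0.106, 0.0875 and 0.215 in rescue libraries. The groups did not overlap, and the KO values of the exon 6 clone were above those of the exon 4 clone, while the rescue values of the clones overlapped. The mean was 0.124 ± 0.0192 in rescue and 0.904 ± 0.299 RPKM in KO cells (mean ± SD, n = 4 per genotype), a ratio of 7.30. The log2 change was 1.15 (standard error 0.12 and adjusted p of 0.00166 by limma, corrected after Benjamini and Hochberg), with higher values in 4 of 4 pairs. Its size depended on the pseudocount, at 2.12 with 0.1 and 0.75 with 1.

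Dtl (chromosome 1, 191537356 to 191575544), the CRL4 receptor, was at 0.320 and 0.368 rescaled RPKM in KO and 0.0483 and 0.180 in rescue libraries of the exon 4 clone. Dtl in the exon 6 clone was at 0.486, 0.627 and 0.477 in KO and 0.0618, 0.0985 and 0.0704 in rescue libraries. Here, too, each KO library was above each rescue library, but all values were under 1 RPKM. The mean was 0.0937 ± 0.0596 in rescue and 0.432 ± 0.106 RPKM in KO cells (mean ± SD, n = 4 per genotype), a ratio of 4.61. On log2(RPKM + 0.5), which understates the change of genes at low levels, the change was 0.65 (standard error 0.12 and adjusted p of 0.0398 by limma, corrected after Benjamini and Hochberg), and 4 of 4 pairs were higher. With pseudocounts of 0.1 and 1 the change of Dtl was 1.48 and 0.39. Its call was close to the threshold. With the replicate number as a block, its adjusted p was 0.0512 (limma, corrected after Benjamini and Hochberg), and over all 18 alternatives with a value the adjusted p lay between 0.000256 and 0.214. Dtl was called in 8 of these, and in 1 of the 8 that leave out a replicate, the one without exon 4 rescue replicate 2, in which the adjusted p was 0.0122. Cdc20 and Ube2c were called over both clones under all of their alternatives, 19 and 18.

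**Figure D2:**
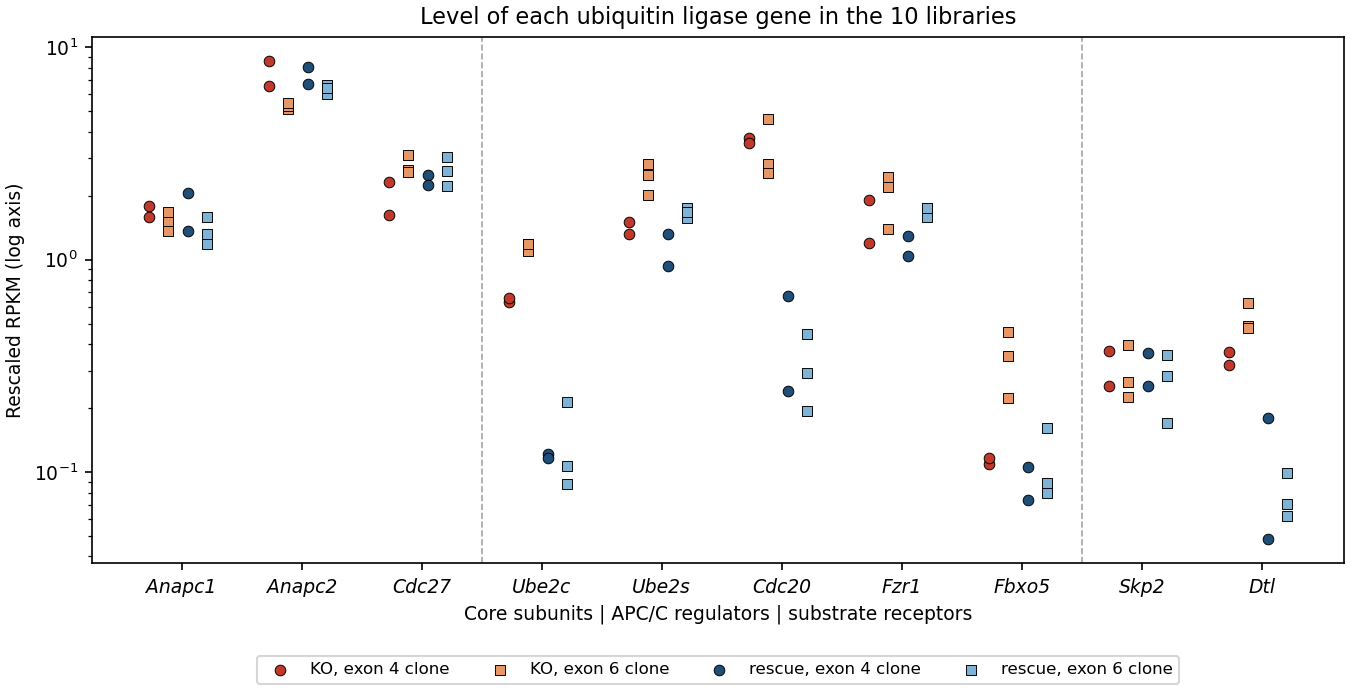
Rescaled RPKM (log axis) of the 10 genes in each of the 10 libraries, by genotype (KO red and orange, rescue dark and light blue) and clone (circles exon 4, squares exon 6); dashed lines part core subunits, APC/C regulators and substrate receptors. KO points lie above all rescue points for Cdc20, Ube2c and Dtl and are mixed with them for the core subunits and Skp2.

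Skp2 (chromosome 15, 9111985 to 9155425), the F-box protein that recognizes p27, had a low level, with like means in KO and rescue cells. Skp2 had levels of 0.255 and 0.371 (KO) and 0.255 and 0.363 (rescue) rescaled RPKM in the exon 4 libraries, and of 0.264, 0.398 and 0.225 (KO) and 0.169, 0.355 and 0.284 (rescue) in the exon 6 libraries. The groups overlapped in both clones. Its log2 change over both clones was 0.048, with a confidence interval from -0.21 to 0.31 (adjusted p of 0.940 by limma, corrected after Benjamini and Hochberg). In log2, its pairs differed by 0.00027 and 0.013 in the exon 4 and by 0.19 and -0.014 in the exon 6 clone. The largest, 0.19, was smaller than the 0.31 between the technical repeats of a KO replicate in that clone.

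Of the APC/C regulators, 3 were not called. Ube2s (chromosome 7, 4794546 to 4812590) is the E2 enzyme that extends the chains begun by Ube2c. Ube2s had levels of 1.50 and 1.32 (KO) and 0.928 and 1.32 (rescue) rescaled RPKM in the exon 4 libraries, and of 2.50, 2.01 and 2.82 (KO) and 1.58, 1.74 and 1.68 (rescue) in the exon 6 libraries. In the exon 6 clone each KO library of Ube2s lay above each rescue library. In the exon 4 clone the lower KO and the higher rescue value were the same to 3 digits. Its log2 change over both clones was 0.35 (standard error 0.11 and adjusted p of 0.271 by limma, corrected after Benjamini and Hochberg), and the confidence interval of 0.11 to 0.60 lay above 0. With the RPKM as deposited, where 5.35% of all genes were called higher, Ube2s was called, with a log2 change of 1.18 against 0.64 for the median gene and an adjusted p of 0.0381 (limma, corrected after Benjamini and Hochberg). Its adjusted p lay between 0.0381 and 1.00 over 19 alternatives.

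Fzr1 (chromosome 10, 81366222 to 81378516), the activator in G1 and quiescence, was not called. Fzr1 had levels of 1.91 and 1.20 (KO) and 1.29 and 1.04 (rescue) rescaled RPKM in the exon 4 libraries, and of 2.20, 1.40 and 2.44 (KO) and 1.75, 1.59 and 1.74 (rescue) in the exon 6 libraries. In the exon 4 clone the groups overlapped. For the exon 6 clone, the biological replicates did not overlap once technical replicates were averaged, and among single libraries only the KO value of 1.40, whose technical repeat was at 2.44, lay below rescue values. Its log2 change was 0.25, with a confidence interval of -0.035 to 0.53 (adjusted p of 0.631 by limma, corrected after Benjamini and Hochberg). Without exon 4 KO replicate 1 the log2 change of Fzr1 was 0.14, and with 1 replicate left out at a time it lay between 0.14 and 0.35. Fbxo5 (chromosome 10, 5799160 to 5805600), known as Emi1, is an inhibitor of the APC/C and was the gene with the lowest KO level. Fbxo5 had levels of 0.109 and 0.116 (KO) and 0.105 and 0.0739 (rescue) rescaled RPKM in the exon 4 libraries, and of 0.353, 0.456 and 0.224 (KO) and 0.161, 0.0891 and 0.0792 (rescue) in the exon 6 libraries. In the exon 6 clone all KO values were above all rescue values. In the exon 4 clone the KO values were also above the rescue values, by less than the spread between the rescue replicates. The log2 change over both clones was 0.25 (confidence interval -0.024 to 0.52 and adjusted p of 0.616 by limma, corrected after Benjamini and Hochberg). In the linear means, Fbxo5 was at 0.106 ± 0.0387 in rescue and 0.229 ± 0.135 RPKM in KO cells (mean ± SD, n = 4 per genotype). Without passing the test, Fzr1 and Fbxo5 were higher in 4 of 4 pairs, by as little as 0.0079 in exon 4 pair 1 of Fbxo5. Ube2s was also higher in 4 of 4, but by only 0.00037 in its exon 4 pair 2, where the values were the same to 3 digits. The share of all genes that were higher in 4 of 4 pairs, or whose groups did not overlap, is not given here. For these and the other genes, such counts are therefore a description only.

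Between rescue cells and KO cells, the order of the levels differed. In rescue cells, Anapc2 was highest at 6.90 ± 0.783 RPKM (SD, n = 4), followed by Cdc27 at 2.45 ± 0.281. Anapc1 at 1.53 ± 0.352, Fzr1 at 1.44 ± 0.333 and Ube2s at 1.38 ± 0.343 came next and did not differ beyond their spread. Cdc20 and Skp2 (0.277 ± 0.0842) were lower and overlapped, and Ube2c, Fbxo5 and Dtl were lowest and overlapped with each other. In KO cells, Anapc2 was again highest at 6.42 ± 1.61 RPKM, and Cdc20 stood next to it in the mean, with replicates that overlapped those of Cdc27 at 2.42 ± 0.616. Ube2s, Fzr1 and Anapc1, at 1.93 ± 0.611, 1.81 ± 0.425 and 1.61 ± 0.128, followed, overlapping each other and Cdc27. Ube2c came below them, and Dtl, Skp2 (0.300 ± 0.0531) and Fbxo5 were lowest, with overlapping replicates. Thus Cdc20 moved from below all core subunits in rescue cells to a mean above those of Cdc27 and Anapc1 in KO cells.

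The contrast between core subunits and the other genes was described by medians, without a test. The median log2 change of the 3 core subunits was -0.035, beside a median of -0.034 over all genes tested, and that of the 7 others was 0.35. In the exon 4 clone, the core median was 0.17 and -0.16 in the 2 pairs of replicates, and the median of the others was 0.48 and 0.14. In the exon 6 clone, the core medians were 0.14 and -0.091, and those of the others 0.53 and 0.52. In each pair the median of the others was the higher, but the members ranged from 0.048 for Skp2 to 2.14 for Cdc20, so the median joins called genes and genes that did not pass. With the RPKM as deposited, the medians were 0.83 and 1.07 beside 0.64 for all genes, and the distance between them was 0.24 in place of 0.39. With a pseudocount of 0.1 they were -0.045 and 0.60, with a distance of 0.64, and with a pseudocount of 1 the distance was 0.31. With quantile normalization the medians were -0.036 and 0.37, with a distance of 0.41. Without exon 4 KO replicate 1, the core median turned positive, at 0.089, beside 0.35 for the others. With 1 replicate left out at a time, the core median lay between -0.074 and 0.089 and that of the others between 0.31 and 0.46.

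**Figure D3:**
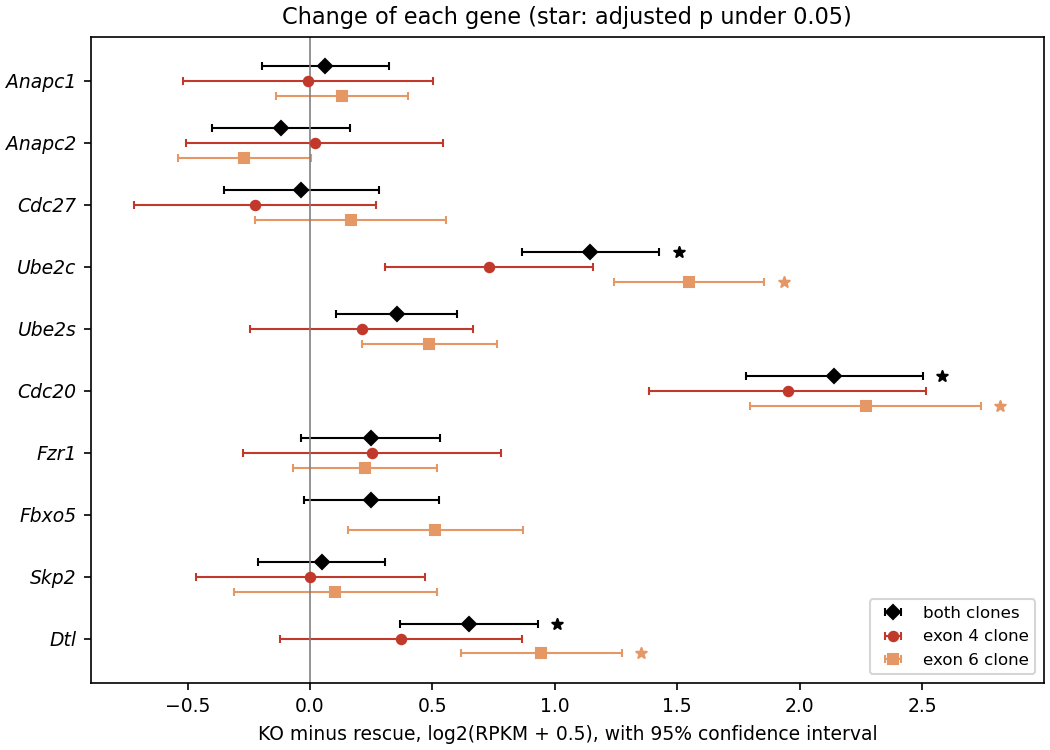
Log2 change of KO against rescue on log2(RPKM + 0.5) for the 10 genes, over both clones (black), in the exon 4 clone (red) and in the exon 6 clone (orange), with 95% confidence intervals; stars mark an adjusted p under 0.05. Cdc20, Ube2c and Dtl are starred over both clones and in the exon 6 clone; intervals of the core subunits include 0. Fbxo5 was below the minimum level of the exon 4 fit and has no point there.

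Within the exon 6 clone by itself (2 biological replicates per genotype), the same 3 genes were called higher and 0 lower, where 1.19% of 15922 genes were called higher and 0.0565% lower. The log2 change was 2.27 (standard error 0.19) for Cdc20, 1.55 (0.12) for Ube2c and 0.95 (0.13) for Dtl. Their adjusted p-values were 0.0128, 0.0124 and 0.0489 (limma, corrected after Benjamini and Hochberg), and each was higher in 2 of 2 pairs. Dtl was called in this clone in 4 of its 14 alternatives, with adjusted p-values from 2.83e-06 to 0.446 (limma, corrected after Benjamini and Hochberg). Its call was lost with the replicate block (0.0820), a pseudocount of 1 (0.0511), quantile normalization (0.0517), 1 fit of all 4 groups (0.0806), the first technical replicate only (0.162), no minimum level (0.295) and each replicate left out. Cdc20 was called in 10 of 15 alternatives and Ube2c in 9 of 14, and both calls were lost with no minimum level and with each replicate left out. Leaving out any 1 of the 4 replicates of this clone (KO 1, KO 2, rescue 1 or rescue 2) left 0 genes called by limma among all 15547 to 16441 tested, and so 0 of the 3. At an unadjusted p under 0.05, 961 to 2756 of all genes and 4 to 6 of the 10 passed in these fits. The 3 genes then had adjusted p-values from 0.0767 to 0.259 for Cdc20, 0.0693 to 0.259 for Ube2c and 0.140 to 0.446 for Dtl (limma, corrected after Benjamini and Hochberg). The lowest log2 changes among these fits were 2.05, 1.44 and 0.83. Ube2s and Fbxo5 had log2 changes of 0.49 (0.21 to 0.76) and 0.51 (0.16 to 0.87) in this clone, with adjusted p-values of 0.176 and 0.265 (limma, corrected after Benjamini and Hochberg).

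Within the exon 4 clone alone, 0 of the 9 genes tested were called by limma in either direction, where 0% of 16781 genes were called higher and 0% lower. At an unadjusted p under 0.05, 2 of the 9 (Cdc20 and Ube2c) passed, as did 402 genes in the higher and 337 in the lower direction. The log2 change was 1.95 (standard error 0.23) for Cdc20 and 0.73 (0.17) for Ube2c, with higher values in 2 of 2 pairs. When the contrast was taken within 1 fit of all 4 groups, which shares the spread between the clones, both were called in the exon 4 clone, where 101 of all 16866 genes were called higher and 4 lower (0.599% and 0.0237%). Cdc20 and Ube2c had adjusted p-values of 0.0161 and 0.0347 (limma, corrected after Benjamini and Hochberg). Dtl had a log2 change of 0.37 with a confidence interval of -0.12 to 0.86 in this clone. With 1 replicate of the clone left out at a time, the change of Dtl lay between 0.25 and 0.59.

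The clones were compared with each other through an interaction term in limma. Of the 10 genes, 0 were called, and 0% of all 16866 genes. At an unadjusted p under 0.05, 1 of the 10 (Ube2c) and 685 of all genes passed. With a pseudocount of 0.1, quantile normalization or the RPKM as deposited, 0 of the 10 passed, beside 678, 605 and 366 of all genes. Without a minimum level, 55 of 45232 genes had a higher and 5 a lower change in the exon 6 clone, and with the RPKM as deposited 7 of 16349 had a higher and 0 a lower one, with 0 of the 10 genes among them. The difference of the log2 changes, exon 6 minus exon 4, was 0.52 for Ube2c (0.10 to 0.93), 0.39 for Fbxo5 (-0.10 to 0.88), 0.36 for Dtl (-0.16 to 0.89) and -0.014 for Cdc20 (-0.81 to 0.78). Among core subunits it was 0.39 for Cdc27 (-0.22 to 0.998), 0.12 for Anapc1 (-0.44 to 0.67) and -0.30 for Anapc2 (-0.85 to 0.26). These differences rest on size factors shared by both clones. The single-clone changes above were rescaled within each clone, so subtracting them does not give these differences. In 1 fit of all 4 groups, the changes of Ube2c were 1.40 (exon 6) and 0.89 (exon 4). Those of Cdc20 were 2.13 (exon 6) and 2.15 (exon 4).

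Repeated libraries, available for 1 KO and 1 rescue replicate of the exon 6 clone, gave the technical error. On log2(RPKM + 0.5), the absolute difference between the KO libraries of this kind was 0.73 for Cdc20, 0.63 for Fzr1, 0.40 for both Ube2s and Fbxo5, 0.21 for Dtl and 0.067 for Ube2c. Between the rescue libraries it was 0.19, 0.099, 0.042, 0.025, 0.069 and 0.28, in the same order of genes. Within this clone, the KO to rescue changes of Cdc20 (2.27), Ube2c (1.55), Dtl (0.95), Fbxo5 (0.51) and Ube2s (0.49) were larger than either difference, as was the fall of Anapc2 (-0.27, against 0.048 and 0.082 for its KO and rescue libraries). Those of Fzr1 (0.22), Anapc1 (0.13, against 0.23 and 0.31), Skp2 (0.10, against 0.31 and 0.13) and Cdc27 (0.17, against 0.028 and 0.19) were smaller than at least 1 of the differences. Technical differences leave out the spread between biological replicates, and Fbxo5, Ube2s and Anapc2 were not called. With only the first technical replicate of each pair, an alternative chosen after seeing the data, 2 of the 10 genes were called over both clones, where 252 of all 16166 genes (1.56%) were called higher and 15 lower, and Dtl had an adjusted p of 0.0654 (limma, corrected after Benjamini and Hochberg).

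Some of these values may hold reads of other genes. The counting is not stated to use strand, and 5 of the 10 genes overlap a gene on the opposite strand, where reads cannot be told apart. Tnnc2 shares 592 of the 2600 exon bases of Ube2c, but was listed at 0 in 6 of the 10 libraries and reached 0.0131 RPKM. It was at 0 in every rescue library, and all its values above 0 were in KO libraries, the direction of Ube2c. Rpl28 shares 183 of the 5141 exon bases of Ube2s and lay between 3.20 and 6.14 RPKM over the libraries. Elovl1 shares 53 of the 1868 exon bases of Cdc20 and lay between 2.59 and 5.85 RPKM. Mfsd12 shares 4 exon bases with Fzr1, and Lmbrd2 overlaps Skp2 but shares 0.

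Near-identical copies also matter for Cdc20. Of the 31-base stretches of its transcripts, 23.4% also occur in Gm7856, a processed pseudogene, and 26.7% in any other gene. Gm7856 itself was at 1.45 and 1.97 rescaled RPKM in the KO and 0.311 and 0.234 in the rescue libraries of the exon 4 clone, and at 1.72, 1.73 and 2.19 in KO and 0.121, 0.119 and 0.143 in rescue libraries of the exon 6 clone. It thus rose with Cdc20, with a log2 change of 1.70 (standard error 0.12 and adjusted p of 0.000279 by limma, corrected after Benjamini and Hochberg) and higher values in 4 of 4 pairs. How the reads of Cdc20 and Gm7856 were divided was not tested. Fbxo5 shares 15.5% of its stretches with Glcci1, which was at 0.178 ± 0.0863 in rescue and 0.143 ± 0.0929 RPKM in KO cells. It also shares 15.5% with Gm45062 and 14.8% with Gm16042, a processed pseudogene, whose levels are not given here. Ube2c shares 25.3% of its stretches with other genes (17.7% of all its stretches with Tnnc2), and Ube2s shares 7.05%. Dtl shares 1.42%, Fzr1 and Skp2 share 0%, and Anapc1, Anapc2 and Cdc27 share 0.489%, 0.403% and 0.478%.

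The other subunits of the APC/C were examined as a list. All 11 were tested and 0 were called in either direction by limma, beside 1.61% higher and 0.083% lower of all genes. At an unadjusted p under 0.05, 1 (Anapc11) passed by limma, beside 1482 of all 16866 genes. Their median log2 change was -0.0094, with a range from -0.23 for Anapc5 to 0.24 for Anapc11. Anapc10, also not called, was lower in every KO library (0.149 to 0.276 rescaled RPKM) than in any rescue library (0.290 to 0.340). The most abundant by the mean over both genotypes was Anapc5, at 4.39 ± 0.734 in rescue and 3.64 ± 0.209 RPKM in KO cells (mean ± SD, n = 4 per genotype). In KO cells alone Cdc16 had a higher mean, with libraries between 3.42 and 4.64 RPKM. The median of this list was 0.69 with the RPKM as deposited, where that of all genes was 0.64.

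Among 8 other regulators of the APC/C, 7 were tested, and 2 were called higher and 0 lower in KO cells (1.61% and 0.083% of all genes). At an unadjusted p under 0.05, 3 passed by limma, beside 1482 of all 16866 genes. Both called genes encode components of the mitotic checkpoint complex that inhibits Cdc20. Mad2l1 rose from 0.374 ± 0.0913 in rescue to 2.64 ± 0.441 RPKM in KO cells (mean ± SD, n = 4 per genotype) and Bub1b (BubR1) from 0.185 ± 0.0696 to 2.53 ± 0.427. Their log2 changes were 1.84 and 2.14, with adjusted p-values of 0.000254 and 6.97e-05 (limma, corrected after Benjamini and Hochberg). Bub3, another component and the most abundant gene of the list, was at 2.35 ± 0.476 in rescue and 2.95 ± 0.0839 RPKM in KO cells and was not called (adjusted p of 0.510, limma, corrected after Benjamini and Hochberg). Fbxo43, with a mean of 0.0148 RPKM, was below the minimum. The median of the list was 0.062.

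Of 11 known substrates of the APC/C, 10 were tested, 9 were called higher and 0 lower, beside 1.61% and 0.083% of all genes, and the median log2 change was 1.46. Pttg1 (securin), the most abundant of them, rose from 0.353 ± 0.109 in rescue to 2.35 ± 0.598 RPKM in KO cells (mean ± SD, n = 4 per genotype). Ccna2 (cyclin A) rose from 0.164 ± 0.0891 to 1.51 ± 0.380 RPKM and Tpx2, a spindle assembly factor, from 0.249 ± 0.117 to 2.17 ± 0.169. Also called were the kinases Aurka, Aurkb, Plk1 and Nek2, with log2 changes of 1.49, 1.42, 1.09 and 1.37, the replication inhibitor Gmnn (geminin) with 1.06 and the kinesin Kif22 with 1.67. The adjusted p-values of the 9 lay between 9.86e-05 for Tpx2 and 0.00513 for Plk1 (limma, corrected after Benjamini and Hochberg). Ccnb1 (cyclin B1), at 0.0328 ± 0.0323 in rescue and 0.201 ± 0.0616 RPKM in KO cells, was not called (adjusted p of 0.157, limma, corrected after Benjamini and Hochberg), and Cdc6, with a mean of 0.0620 RPKM, was not tested. With the RPKM as deposited, 10 of the 10 were called, beside 5.35% of all genes. These are RNA levels, and the proteins were not measured.

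Of 9 genes of the SCF core and its E2 and neddylation enzymes, 1 was called higher and 0 lower by limma (all genes: 1.61% and 0.083%). At an unadjusted p under 0.05, 2 of the 9 passed by limma, beside 1482 of all 16866 genes. The median log2 change was -0.0060, and the lowest was -0.33 for Rbx1, whose KO and rescue libraries overlapped. The called gene was Cks1b, the cofactor with which Skp2 binds p27, which rose from 0.649 ± 0.113 in rescue to 2.98 ± 0.699 RPKM in KO cells (mean ± SD, n = 4 per genotype), a log2 change of 1.58 (standard error 0.15 and adjusted p of 0.000951 by limma, corrected after Benjamini and Hochberg) with 4 of 4 pairs higher. Nedd8, the ubiquitin-like modifier of cullins, was the most abundant at 6.53 ± 1.72 in rescue and 7.72 ± 2.50 RPKM in KO cells. With the RPKM as deposited, the list's median was 0.88 against 0.64 for all genes, and 1 of 9 genes was called, beside 5.35% of all genes.

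Of 6 other F-box receptors, 0 were called by limma (all genes: 1.61% higher and 0.083% lower), with a median of -0.024. At an unadjusted p under 0.05, 1 (Ccnf) passed by limma, beside 1482 of all 16866 genes. Ccnf (cyclin F) was at 0.365 ± 0.122 in rescue and 0.742 ± 0.201 RPKM in KO cells (mean ± SD, n = 4 per genotype), with an adjusted p of 0.0570 (limma, corrected after Benjamini and Hochberg). Fbxw11, which recognizes phosphorylated beta-catenin and Emi1, was the most abundant at 3.74 ± 0.384 and 3.54 ± 0.186 RPKM. Of the 4 genes of the CRL4 core, 0 were called, beside the same shares of all genes, and their median was -0.0013. Of these 4, 0 had an unadjusted p under 0.05 by limma, beside 1482 of all 16866 genes. Ddb1, the adaptor that Dtl binds, was at 39.8 ± 3.34 in rescue and 38.3 ± 4.07 RPKM in KO cells. The medians of these 2 lists were 0.67 and 0.85 with the RPKM as deposited, where 1 of 6 F-box receptors and 0 of 4 CRL4 genes were called higher, beside 5.35% of all genes.

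Among 7 substrates of SCF-Skp2 and CRL4-Dtl, 6 were tested, and 2 were called higher and 0 lower in KO cells (all genes: 1.61% and 0.083%). By limma, 2 had an unadjusted p under 0.05, beside 1482 of all 16866 genes, and the median was 0.19. Cdt1, a replication licensing factor, rose from 0.765 ± 0.210 in rescue to 2.70 ± 0.302 RPKM in KO cells (mean ± SD, n = 4 per genotype, log2 change 1.35). The transcription factor E2f1 rose from 1.05 ± 0.328 to 3.13 ± 0.785 RPKM (log2 change 1.23). Their adjusted p-values were 0.00121 and 0.0158 (limma, corrected after Benjamini and Hochberg). Cdkn1a (p21), the most abundant, was at 24.7 ± 9.35 in rescue and 26.8 ± 7.93 RPKM in KO cells and was not called. Cdkn1c, with a mean of 0.0191 RPKM, was not tested.

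**Figure D4:**
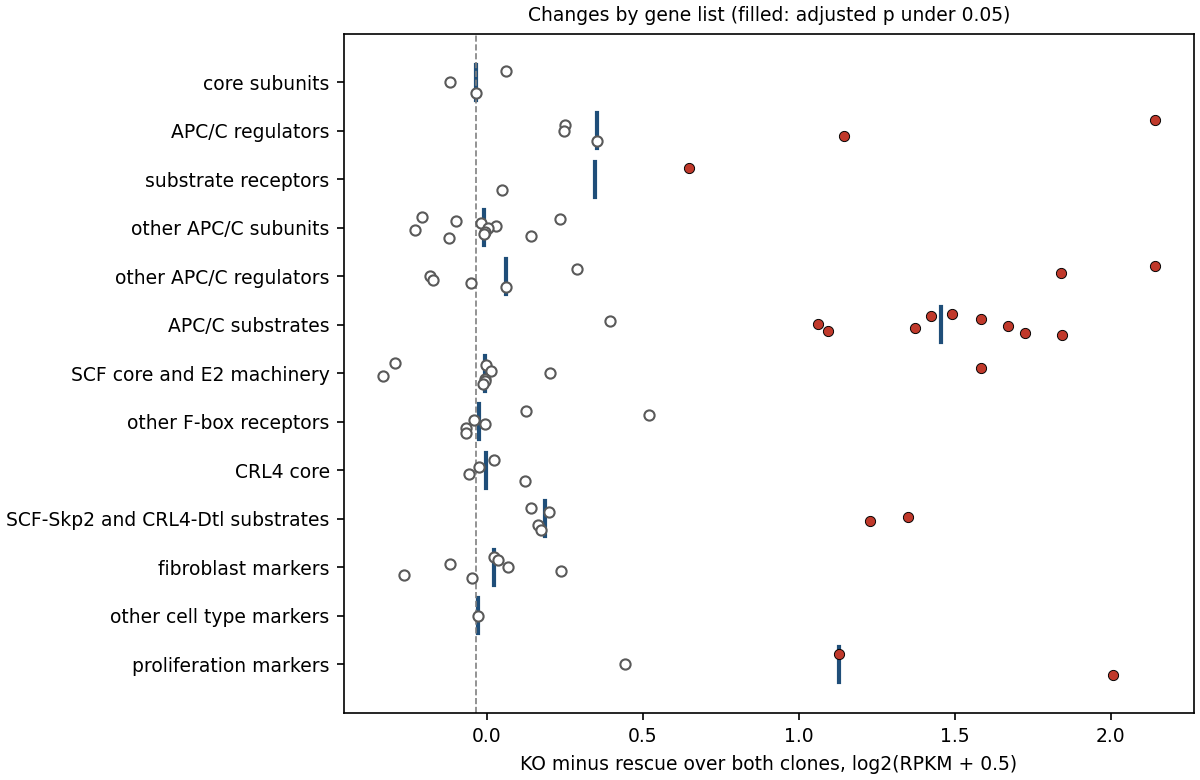
Log2 change of KO against rescue over both clones for each tested gene, by gene list; filled red points have an adjusted p under 0.05 and are higher in KO, bars are list medians and the dashed line is the median of all 16866 genes (-0.034). Of 10 APC/C substrates 9 are filled, and of the core subunits and other APC/C subunits 0 are filled.

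Of 3 markers of proliferation, 2 were called higher and 0 lower, where 1.61% and 0.083% of all genes were. All 3 had an unadjusted p under 0.05 by limma, as did 1482 of all 16866 genes. Top2a, the most abundant, rose from 1.09 ± 0.518 to 5.67 ± 1.03 RPKM and Mki67 (Ki-67) from 0.163 ± 0.0972 to 0.962 ± 0.315 (± SD, n = 4 per genotype), with adjusted p-values of 0.000352 and 0.00956 (limma, corrected after Benjamini and Hochberg). Pcna was at 0.675 ± 0.223 and 1.09 ± 0.170 RPKM and was not called, while 3 of 3 markers were with the RPKM as deposited (5.35% of all genes). The summed level of the 3 genes was 9.13 and 7.14 in KO and 2.94 and 2.16 in rescue libraries of the exon 4 clone. For the exon 6 clone, it was 7.25, 7.81 and 6.93 in KO and 1.16, 1.18 and 1.69 in rescue libraries, and 0 of the 3 were at 0 in any library. The part of cells in cycle in the changes of Cdc20, Ube2c and Dtl was not tested.

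The fibroblast label was checked with 7 markers, which were present in every library (median log2 change 0.024). By limma, 0 were called (1.61% higher and 0.083% lower among all genes) and 0 had an unadjusted p under 0.05 (1482 of all 16866). By the mean over both clones, the most abundant marker was Fn1, at 193 ± 61.1 in rescue and 197 ± 33.1 RPKM in KO cells (mean ± SD, n = 4 per genotype). In every library of the exon 6 clone Col1a1 was above Fn1. The summed level of the 7 markers lay between 377 and 764 RPKM over the 10 libraries. Thy1 differed between the clones, at 0.531 and 1.20 in KO and 1.00 and 1.83 in rescue libraries of the exon 4 clone and at 8.74, 7.48 and 8.66 in KO and 9.49, 8.20 and 7.41 in rescue libraries of the exon 6 clone. Of 8 markers of epithelial, blood, endothelial, muscle, neuronal and stem cells, 7 were below the minimum of 0.1 RPKM. The eighth, the E-cadherin gene Cdh1, was at 0.207 ± 0.190 in rescue and 0.192 ± 0.174 RPKM in KO cells and was not called. The 8 together summed to between 0.0402 and 0.691 RPKM, with between 0 and 4 of them at 0 in a library.

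The genes most like the called genes were found by the Pearson correlation of log2(RPKM + 0.5) over the 8 biological replicates, among genes whose mean reached 1 RPKM. For Cdc20 these were Tacc3 (r = 0.995), Gins2 (0.989) and Gm8203 (0.988), for Ube2c Rnaseh2c (0.990), Mcm5 (0.987) and Hjurp (0.986), and for Dtl Hjurp (0.961), Haus3 (0.956) and Kif20b (0.954). Tacc3 and Haus3 act at the mitotic spindle, Gins2 and Mcm5 in DNA replication, Hjurp at centromeres, and Kif20b is a mitotic kinesin. Gm8203 is a processed pseudogene. The replicates fall into KO and rescue groups, which these correlations share, so they describe a common pattern and carry no p.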

How the data were processed

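The authors depleted ribosomal RNA, clipped reads with cutadapt, mapped them to mm10 with segemehl, counted them per gene with rnacounter against GENCODE and deposited RPKM values, 1 column per library. The submitters' processing notes also name Picard 1.89. Their edgeR test, at a false discovery rate of 5%, needs counts and was not repeated.

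Groups came from the sample labels. Names and positions came from GENCODE M21 (GRCm38), which held 44585 of 45232 identifiers. Size factors by the median of ratios, by which libraries were divided, were taken over genes that averaged 1 RPKM or more and were above 0 everywhere (8523 genes for both clones) and recomputed within the libraries of a single-clone comparison. Printed levels use the factors over all 10 libraries. Technical replicates were averaged. Genes averaging 0.1 RPKM or more were tested on log2(RPKM + 0.5) with limma 3.58.1 in R 4.3.3 (lmFit, then eBayes with a trend, two-sided). The clone was a covariate where both were used. Calls were made at a Benjamini-Hochberg adjusted p under 0.05 over all genes tested. Motifs, overlaps and shared stretches of sequence were computed with Python 3.11.15. The procedure was tested on simulated data with known changes.

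The labels number the replicates, and a pairing of KO with rescue cells rests on those numbers alone. After removal of group means, the values of like-numbered KO and rescue replicates had a correlation across genes of 0.432 (exon 4) and 0.217 (exon 6). A block for clone and number was therefore fitted as an alternative to each comparison.

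Members, gene lists and tests were chosen with earlier results of these data known. Named are all 10 members, from each other list the genes called and the most abundant gene, the 3 genes most like each called member, and Lin37. Genes that overlap or share sequence with a member were named for that reason. Anapc10, Anapc11, Rbx1, Ccnf, Ccnb1, Pcna, Thy1 and genes below the minimum were chosen after their values were seen. Alternatives were pseudocounts of 0.1 and 1, no minimum or 1 RPKM, RPKM as deposited, quantile normalization, separate technical replicates, no trend, no clone covariate, 1 fit of all 4 groups, the block, and leaving out each replicate. The use of only the first technical replicate was added after seeing the data.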

Additional observations from a re-analysis of the deposited data

Results flagged for a closer look

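In 1 of the 20 sets of 4 replicates examined (KO and rescue for each of the 10 genes), a replicate lay far from the other 3. Anapc1 was at 2.06 rescaled RPKM in exon 4 rescue replicate 2, while the other 3 rescue replicates lay between 1.33 and 1.39 RPKM, so that the gap took up 0.905 of the range of the 4 values, above Dixon's 95% critical value. Chance marks about 5% of such sets. Without this replicate the log2 change of Anapc1 over both clones was 0.17, against 0.062 with it, and Anapc1 was not called in either case. The difference of KO and rescue between the clones was called by limma for 0 of the 10 genes, and 1 (Ube2c) had an unadjusted p under 0.05. With a pseudocount of 0.1, quantile normalization or the RPKM as deposited, 0 of the 10 did.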

How the results depend on the processing

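For Cdc20 and Ube2c over both clones, direction and call held under every alternative run (19 and 18 settings), with log2 changes from 1.66 to 2.89 and from 0.75 to 2.12. Over both clones, the settings of the 10 genes gave the same direction and side of the threshold in 169 cases, lost a call without a change of sign in 10, gained 1 without one and changed sign in 6. In the exon 6 clone these counts were 119, 20, 5 and 2, and in the exon 4 clone 100, 0, 2 and 11. Anapc2 in the exon 6 clone, with the RPKM as deposited, both changed sign and was called, and is among the sign changes. Causes of the changes below were not tested, except that other minimum levels change the number of genes tested.

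With the RPKM as deposited, library scale is not removed and the median log2 change of all genes was 0.64. The number of genes higher in KO over both clones was then 875 of 16349 (5.35%). In the exon 6 clone 9 members were called, where 10040 of all 16361 genes (61.4%) were called higher. Medians were 0.83 for core subunits and 1.07 for the other members. Signs turned positive over both clones for Anapc2 (0.83) and Cdc27 (0.79), in the exon 6 clone for Anapc2 (0.66), and in the exon 4 clone for Anapc1 (0.78) and Cdc27 (0.57). Quantile normalization changed the sign of Anapc1 to 0.017 and of Anapc2 to -0.0010 in the exon 4 clone. A pseudocount of 0.1 moved the median of the other members to 0.60.

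Without a minimum level, 155 of 45232 genes were higher over both clones. For the exon 6 clone, limma then called 0 of all 45232 genes, and so 0 members (3023 genes and 6 members at an unadjusted p under 0.05). With a minimum of 1 RPKM, 93 of 7550 genes were higher over both clones and 91 of 8307 in the exon 6 clone, and 1 member was called in each. Members that average less have no value at that minimum. In the exon 4 clone, 2 of 6248 genes were then higher and 1 lower, and with the replicate block 0 and 1 of 16781, with 0 members among them. Without the clone covariate, 6 genes were lower. In 1 fit of all 4 groups, 101 of 16866 genes were higher in the exon 4 clone, 2 members were called there and Anapc1 there was at 0.0030. With the replicate block, 276 genes (1.64%) were higher and 27 lower over both clones, and 159 (0.999%) were higher in the exon 6 clone. Called higher under it were 2 members (without Dtl) over both clones and 2 in the exon 6 clone. The block changed no other call of a member. Settings for technical replicates do not apply to the exon 4 clone, and Fbxo5 was under its minimum there.

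With 1 replicate left out at a time, a lone replicate of a group is assumed to vary like the others. Over both clones, 177 to 265 genes were higher and 4 to 16 lower. In the exon 6 clone, limma called 0 of all 15547 to 16441 genes, and so 0 members, with any of its 4 replicates left out (961 to 2756 genes at an unadjusted p under 0.05). Over both clones, log2 changes ranged from -0.016 to 0.17 for Anapc1, from -0.13 to 0.089 for Cdc27 and from -0.019 to 0.10 for Skp2. In the exon 4 clone they ranged from -0.22 to 0.22 for Anapc1, from -0.16 to 0.20 for Anapc2 and from -0.089 to 0.098 for Skp2. In the exon 6 clone they ranged from -0.067 to 0.31 for Skp2, from 0.0091 to 0.32 for Cdc27 and from 0.14 to 0.30 for Fzr1. The unknown depth limits the precision of the genes under 1 RPKM, among them Dtl, Fbxo5 and Skp2.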
